A study of Mus musculus with 9 samples.

Results

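The 10 genes described here are Atrip, Mapk8, Zbtb4, Ap4e1, Ift88, Lrsam1, Pstk, Slc35b4, Ssh3 and Stag1, examined transcript by transcript in splenic B cells of 9 mice. They were chosen from measured values. With a correction for average transcript length, as tximport applies it, each differed between Eµ-TCL1 and Eµ-MTCP1 mice by over 2 on the log2 scale in absolute value. With reads summed over the transcripts of the gene, each differed by under 1. Of 11161 genes tested on summed reads, 24 met this rule (0.215%), and the 10 genes are part of these 24. The question was whether long and short forms of these genes switched among the 3 groups.

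Each group held 3 mice of strain C57/BL6NTac. The Eµ-MTCP1 group was Z2551, Z2606 and Z2641, and it carried the transgene hMTCP1. The Eµ-TCL1 group was B4376, B4437 and C1594, with the transgene hTCL1. Wildtype, without a transgene, was Z2754, Z2755 and Z2785. Values below are given in this order of mice. Both transgenes are human sequences driven by an immunoglobulin heavy chain promoter and the Eµ enhancer, which act in B cells, and the Eµ-MTCP1 mice came from 1 founder line, Z36. The ages of the sequenced mice are not given in the sources used here. B cells were enriched from spleen with a pan-B-cell kit, and 1 library was made per mouse. The study took spleens of transgenic mice that had reached euthanasia criteria. It reports a dominant B-cell clone in all 3 mice of each transgenic group, a disease like chronic lymphocytic leukemia, and many clones in wildtype. Comparisons with wildtype thus set leukemic against normal B cells, and effects of transgene and leukemia cannot be told apart in them.

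A gene usually gives rise to several transcripts that differ in exons, in start and in end. Salmon assigns each read, in fractions where needed, to the transcripts that could have produced it. The effective length of a transcript is the number of positions from which a fragment could start, so it falls towards 0 as the transcript gets shorter than a typical fragment. TPM (transcripts per 1000000) divides reads by effective length, and the average effective length of a gene is its total reads divided by the sum of reads over effective length. A read on a transcript of very low effective length therefore weighs far more in TPM, and in the average length, than a read on a long transcript.

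Salmon values were deposited on a pair of references. The main one here, called the coding-sequence reference, also holds the human transgene sequences, and 92.0% of its transcripts have exactly the length of the annotated coding sequence. In the other, called the full-length reference, 99.8% have the length of all exons together. Assigned reads per library were 6464089 to 8053017 on the coding-sequence reference and 11438681 to 14070588 on the full-length reference. At these depths 3 reads are 0.373 to 0.464 counts per 1000000 reads (CPM) and 0.213 to 0.262 CPM. B-cell markers summed to 6380 to 9240 CPM in every library, T-cell markers to 2.33 to 39.1 CPM, NK markers to 0.15 to 31.5 CPM, erythroid markers to 13.0 to 194 CPM and myeloid markers to 130 to 1270 CPM. T-cell markers were higher in Eµ-TCL1 mice (8.07 to 39.1 CPM) than in wildtype (2.68 to 4.78 CPM). NK markers were lower in Eµ-MTCP1 mice (0.15 to 8.69 CPM) than in wildtype (10.6 to 31.5 CPM). Myeloid markers were also lower in Eµ-MTCP1 mice (335 to 710 CPM) than in wildtype (712 to 1150 CPM). The other marker ranges of each transgenic group overlapped wildtype. None of the markers listed was at 0 in all libraries. Mitochondrial genes took 2.91 to 10.8% of reads. The authors' normalized log2 value of hTCL1A was 14.9 to 15.6 in Eµ-TCL1 mice and at most 6.96 elsewhere, and that of hMTCP1 was 11.1 to 12.3 in Eµ-MTCP1 mice and at most 6.19 elsewhere, with a floor of 5.85. The wildtype library Z2755 was read on another lane than the other 8. Each library came from another mouse, so p-values measure the spread between mice. In bulk RNA, fewer cells of a type and less RNA per cell cannot be told apart.

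Each of the 10 genes had a form with an effective length under 20 bases in the coding-sequence reference. Of 10858 genes with a mean of at least 10 reads, 16.9% had such a form, and 39.0% had a form under 100 bases. In the full-length reference none of the 10 genes had a form under 100 bases. Forms under 100 bases are called very short forms from here on. The coding sequences of 6 of them are printed because a few reads on each moved the average length of the gene. They were rebuilt from the GENCODE M21 annotation (genome build GRCm38), 5′ to 3′, and capitals mark bases in no 31-base word shared with another coding sequence. The spans are those of the coding parts and include introns.

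Atrip-202 (chr9:109059841-109060338, minus strand, 144 bases): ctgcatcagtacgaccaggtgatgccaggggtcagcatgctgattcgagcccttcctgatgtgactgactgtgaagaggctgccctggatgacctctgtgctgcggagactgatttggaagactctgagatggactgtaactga
Mapk8-210 (chr14:33402923-33410977, minus strand, 123 bases): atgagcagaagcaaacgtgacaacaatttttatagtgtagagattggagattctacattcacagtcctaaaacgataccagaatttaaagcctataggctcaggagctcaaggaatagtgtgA
Zbtb4-206 (chr11:69775871-69776022, plus strand, 152 bases): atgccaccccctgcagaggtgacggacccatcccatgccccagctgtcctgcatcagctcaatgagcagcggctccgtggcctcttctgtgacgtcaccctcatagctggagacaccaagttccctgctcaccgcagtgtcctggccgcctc
Ift88-203 (chr14:57430544-57437188, plus strand, 165 bases): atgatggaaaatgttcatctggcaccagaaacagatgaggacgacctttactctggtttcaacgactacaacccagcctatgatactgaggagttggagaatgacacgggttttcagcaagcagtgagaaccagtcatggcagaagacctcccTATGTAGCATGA
Slc35b4-202 (chr6:34172707-34176854, minus strand, 126 bases): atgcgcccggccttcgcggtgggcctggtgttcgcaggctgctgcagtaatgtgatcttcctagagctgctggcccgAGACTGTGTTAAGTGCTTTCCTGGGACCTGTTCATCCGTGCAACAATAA
Stag1-205 (chr9:100705226-100737996, plus strand, 151 bases): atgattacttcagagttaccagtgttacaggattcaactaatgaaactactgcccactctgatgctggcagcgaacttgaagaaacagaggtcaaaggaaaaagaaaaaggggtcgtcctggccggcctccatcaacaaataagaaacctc

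The capitals show how little sequence set these forms apart. Atrip-202, Zbtb4-206 and Stag1-205 had no base of their own, since each of their 31-base words also occurs in another coding sequence of the same gene. Mapk8-210 had 1 word of its own among 93 and Ift88-203 had 12 among 135. Slc35b4-202 had 49 of 96, at its 3′ end. Atrip-202 is the last stretch of the main form Atrip-201, while the other 5 begin with the start codon of the leading form of their gene. Mapk8-210, Ift88-203 and Slc35b4-202 are annotated as nonsense-mediated decay forms, which carry a premature stop codon. Atrip-202, Zbtb4-206 and Stag1-205 are annotated as protein coding but incomplete at 1 end. The effective length was 3 to 4 bases for Atrip-202, 1 to 11 for Mapk8-210, 6 for Zbtb4-206 and Stag1-205, 11 to 15.6 for Ift88-203 and 1 to 2 for Slc35b4-202. A single read on Atrip-202 gave 12.4 to 19.9 TPM, whereas a read on Atrip-201, of 2358 coding bases, gave 0.0252 to 0.0316 TPM. For Slc35b4-202 a read gave 26.5 to 49.5 TPM, and for Slc35b4-201 it gave 0.057 to 0.0743 TPM.

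Very short forms took 80.6 of the 8443 reads of the 10 genes over all libraries (0.955%). They held reads in 35 of 90 combinations of gene and library: 11 of 30 for Eµ-MTCP1, 12 of 30 for Eµ-TCL1 and 12 of 30 for wildtype. Where present, they took 0.207 to 14.8% of the gene's reads (median 2.68%) but 22.0 to 96.9% of its TPM (median 82.1%). The share of TPM was over 50% in 30 of the 35 combinations. The largest number of very short reads of a gene in a library was 13.5, in Pstk.

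**Figure D1:**
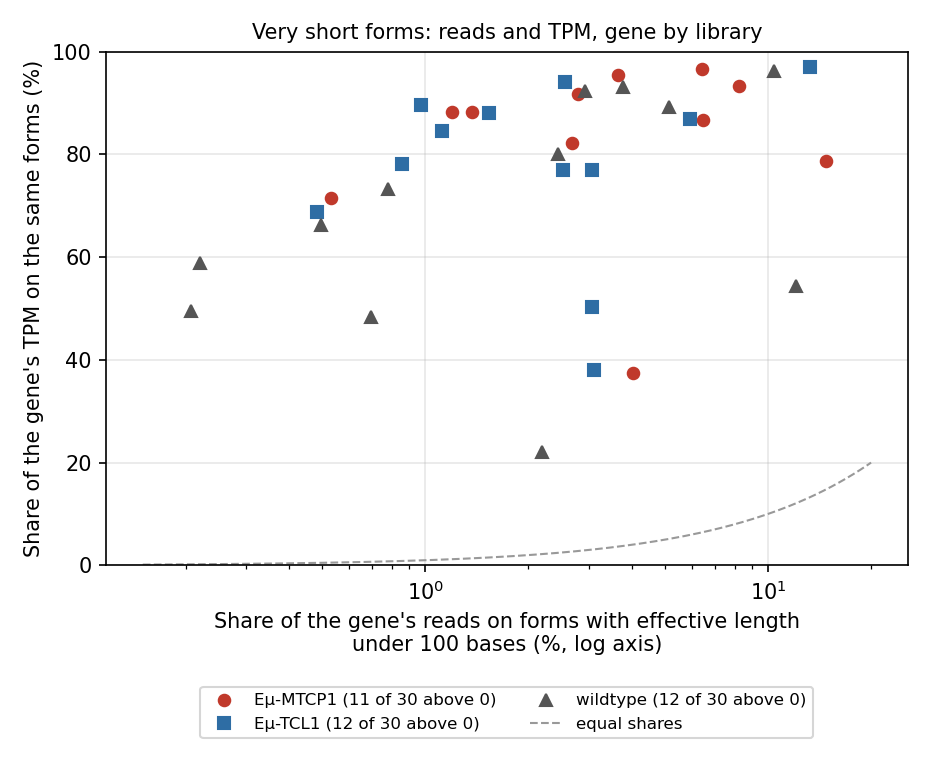
Share of a gene's reads (x axis, percent, log scale) and of its TPM (y axis, percent) on forms with an effective length under 100 bases, coding-sequence reference, for each combination of gene and library with such reads. Circles are Eµ-MTCP1 (11 of 30 combinations), squares Eµ-TCL1 (12 of 30) and triangles wildtype (12 of 30), and the dashed curve marks equal shares. All 35 points lie far above the curve.

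The values that follow describe the average effective length on the coding-sequence reference. The contrast of Eµ-TCL1 with Eµ-MTCP1 chose the genes, so it is described without a test. The average length was lower in Eµ-TCL1 mice for 5 genes and lower in Eµ-MTCP1 mice for the other 5, and the difference of the log2 means was 1.39 to 2.50 in size (median 2.01). Between the highest and the lowest library of a gene the average length differed by 4.45-fold (Lrsam1) to 29.1-fold (Ssh3).

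Among genes of the genome and its packaging, Atrip encodes the partner that brings the ATR kinase to single-stranded DNA. Its average length was 1720, 1764 and 1935 bases for Eµ-MTCP1, 228, 569 and 302 for Eµ-TCL1 and 1657, 802 and 954 for wildtype. The transgenic groups did not overlap (1810 ± 114 and 367 ± 179, SD, n = 3), and wildtype lay between them. The reads behind this were few: Atrip-202 had 0 reads for Eµ-MTCP1, 3.8, 1.6 and 2.6 for Eµ-TCL1 and 0, 1.0 and 0.8 for wildtype. Summed per group, that was 8.0 of 818 Atrip reads in Eµ-TCL1 mice, 0.984%. In Eµ-MTCP1 mice it was 0 of 858, which allows a share of up to 0.35% (3 reads). That limit covers counting error only, since reads amplified by PCR are not independent molecules, and it leaves out the error of assigning reads among overlapping forms. These shares pool 3 mice and belong to the contrast that chose the gene, so they are not tested against each other.

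Stag1 encodes a subunit of cohesin, the ring that holds sister chromatids and chromatin loops together. The average length was 1482, 804 and 440 bases for Eµ-MTCP1, 3642, 3993 and 1803 for Eµ-TCL1 and 800, 563 and 2010 for wildtype. All 3 Eµ-TCL1 mice lay above all Eµ-MTCP1 mice, and wildtype overlapped both. Stag1-205 held 0, 1.0 and 1.9 reads for Eµ-MTCP1, none for Eµ-TCL1 and 2.0, 2.0 and 0 for wildtype, out of 121 to 395 Stag1 reads per library. The mouse Z2551 had a low average without a read on Stag1-205.

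Zbtb4 encodes a zinc finger protein that binds methylated CpG sites. It averaged 90, 197 and 2292 bases for Eµ-MTCP1, 1407, 2246 and 2352 for Eµ-TCL1 and 148, 190 and 2454 for wildtype. The values fell into a low set of 4 libraries and a high set of 5, and Eµ-MTCP1 and wildtype mice were in both sets. The 4 low libraries were those with reads on Zbtb4-206, namely 2.0, 1.0, 0.9 and 1.0 in Z2551, Z2606, Z2754 and Z2755. Zbtb4 had 13 to 35 reads per library on this reference.

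Among signalling genes, Mapk8 encodes the kinase JNK1, which phosphorylates Jun proteins under stress. Average lengths were 1161, 1184 and 1237 bases for Eµ-MTCP1, 161, 1270 and 73.3 for Eµ-TCL1 and 1212, 1198 and 1102 for wildtype. Only B4376 and C1594 were low, and the third Eµ-TCL1 mouse had the highest value of all 9. Mapk8-210 had 1.8 reads in B4376 and 1.0 in C1594, and 0 in the other 7 libraries, out of 21 to 39 Mapk8 reads.

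Ssh3 encodes a slingshot phosphatase, of a family that acts on the actin-severing protein cofilin. Its average was 1674, 1633 and 1623 bases for Eµ-MTCP1, 58.1, 1599 and 1036 for Eµ-TCL1 and 1428, 1194 and 1694 for wildtype. B4376 alone was very low, with 2.0 of its 15 reads on Ssh3-210. Without B4376 the difference between the transgenic groups went from -1.84 to -0.35 on the log2 scale, and Ssh3 was the only one of the 10 genes to fall under 1 when a library was left out.

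Lrsam1 encodes a ubiquitin ligase that acts on TSG101, a subunit of the endosomal sorting complex ESCRT-I. The average length came to 1610, 1556 and 1564 bases for Eµ-MTCP1, 1565, 367 and 376 for Eµ-TCL1 and 746, 1619 and 1633 for wildtype. B4437 and C1594 were the lowest, with 1.7 reads on Lrsam1-207 and 1.9 on Lrsam1-203, and the other Eµ-TCL1 mouse lay among the Eµ-MTCP1 mice. The low wildtype mouse, Z2754, had 4.8 reads on the short Lrsam1-204 (effective length 140 to 157 bases).

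Among genes of transport, Ap4e1 encodes a subunit of the AP-4 coat, which sorts cargo at the trans-Golgi network. It averaged 3126, 386 and 157 bases for Eµ-MTCP1, 3137, 1765 and 3293 for Eµ-TCL1 and 3709, 3224 and 3066 for wildtype. Z2606 and Z2641 were low, each with 1.0 read on Ap4e1-202, and B4437 had 2.3 reads on the longer Ap4e1-205. No wildtype library had a read on either form.

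Ift88 encodes a subunit of the intraflagellar transport complex B, which builds cilia. Average lengths were 2259, 429 and 177 bases for Eµ-MTCP1, 2346, 2481 and 2352 for Eµ-TCL1 and 115, 474 and 254 for wildtype. Z2551 and the Eµ-TCL1 mice were high and the other 5 libraries low. Ift88-203 had 0.9 and 1.0 reads in Z2606 and Z2641, 2.9, 1.0 and 2.0 in wildtype mice and 0 elsewhere, out of 12 to 41 Ift88 reads.

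Slc35b4 encodes a transporter of nucleotide sugars into the Golgi and endoplasmic reticulum. The average length came to 832, 799 and 858 bases for Eµ-MTCP1, 183, 92.2 and 841 for Eµ-TCL1 and 808, 860 and 845 for wildtype. The 7 libraries without a read on Slc35b4-202 lay between 799 and 860. B4376 and B4437 had 1.0 read each on it, out of 117 and 103 Slc35b4 reads.

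Pstk encodes the kinase that phosphorylates seryl-tRNA on the way to selenocysteine. Its average was 398, 166 and 80.6 bases for Eµ-MTCP1, 736, 504 and 763 for Eµ-TCL1 and 418, 255 and 432 for wildtype. The transgenic groups did not overlap (215 ± 164 and 668 ± 143, SD, n = 3). Pstk had the most very short reads, with Pstk-205 (effective length 40 to 43 bases) at 3.0, 10 and 0 reads for Eµ-MTCP1, 0, 2.1 and 0 for Eµ-TCL1 and 0, 7.5 and 2.1 for wildtype. Summed over Pstk-204, Pstk-205 and Pstk-209, very short forms took 9.47% of Pstk reads for Eµ-MTCP1, 1.1% for Eµ-TCL1 and 4.64% for wildtype. Of the 18.5 such reads for Eµ-MTCP1, 13.5 came from Z2606.

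**Figure D2:**
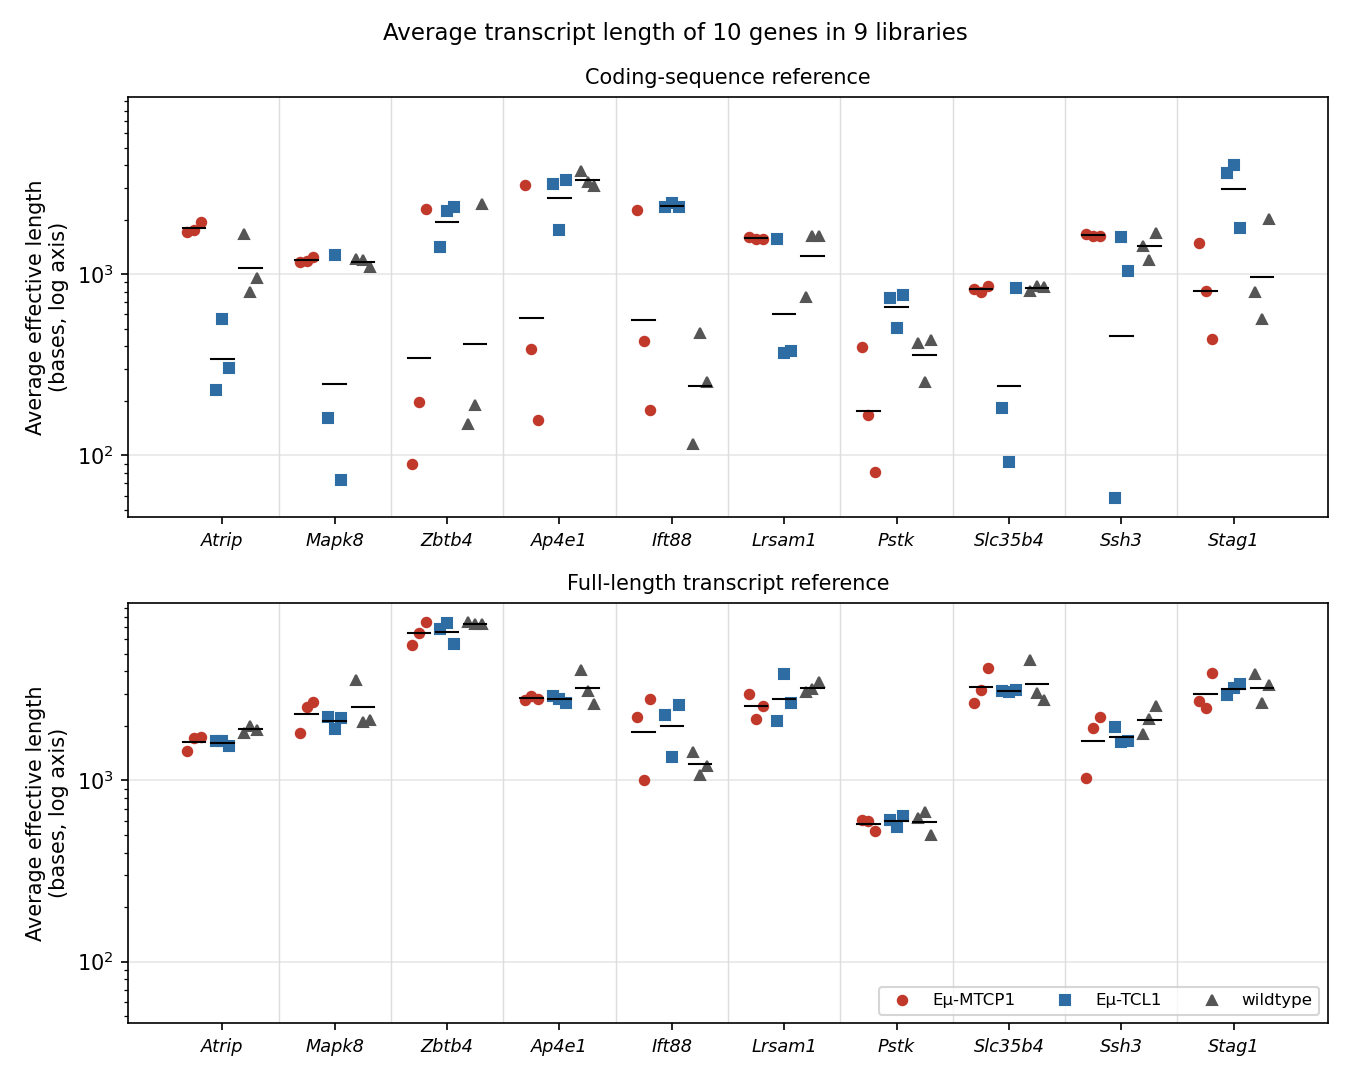
Average effective length in bases (y axis, log scale) of the 10 genes in each of 9 libraries, on the coding-sequence reference (top) and the full-length reference (bottom), with the same y axis. Points are mice, 3 per group, and black bars are geometric means. On the coding-sequence reference values of a gene spread 4.45-fold to 29.1-fold over the libraries, and on the full-length reference 1.34-fold to 2.79-fold.

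The average lengths were computed again without the very short forms. The difference between Eµ-TCL1 and Eµ-MTCP1 mice then fell to between 0.01 and 0.32 in size on the log2 scale for the 10 genes. Atrip, for example, went from -2.41 to 0.05 and Slc35b4 from -1.78 to 0.03. With the annotated length as the weight in place of the effective length, the differences were 0.06 to 0.57 in size, and with 1 effective length per transcript for all libraries they were 1.38 to 3.06. On the full-length reference the difference was 0.01 to 0.14 in size.

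The fitted fold change of the rule followed the same lines. With length offsets on the coding-sequence reference the log2 fold change from Eµ-MTCP1 to Eµ-TCL1 was 3.20 for Mapk8, 3.03 for Ssh3, 2.30 for Slc35b4, 2.15 for Atrip and 2.04 for Lrsam1. It was -3.87 for Zbtb4, -2.41 for Ift88, -2.28 for Ap4e1, -2.11 for Pstk and -2.09 for Stag1. On summed reads it was between -0.30 (Atrip) and 0.99 (Ssh3). With offsets but without very short forms, 9 of the 10 genes were under 1 in size, and Ssh3 was at 1.35. With offsets on the full-length reference the 10 genes lay between -0.38 (Ift88) and 0.76 (Ssh3), and none met the rule, which 5 of 14891 genes met there (0.0336%). Of the 14 other genes that met the rule on the coding-sequence reference, 10 were under 1 without very short forms. Lrsam1 lay just inside the limit of 2, as did Carmil3, which is not among the 10 genes, at -2.003. Rad54l2 at 1.99 lay just outside, and Cpeb3 met the limit with offsets (-2.173) but was at -1.012 on summed reads. With 1 transgenic library left out, 6 to 9 of the 10 genes still met the rule, 6 of them without B4376, and all 10 did with any wildtype library left out.

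**Figure D3:**
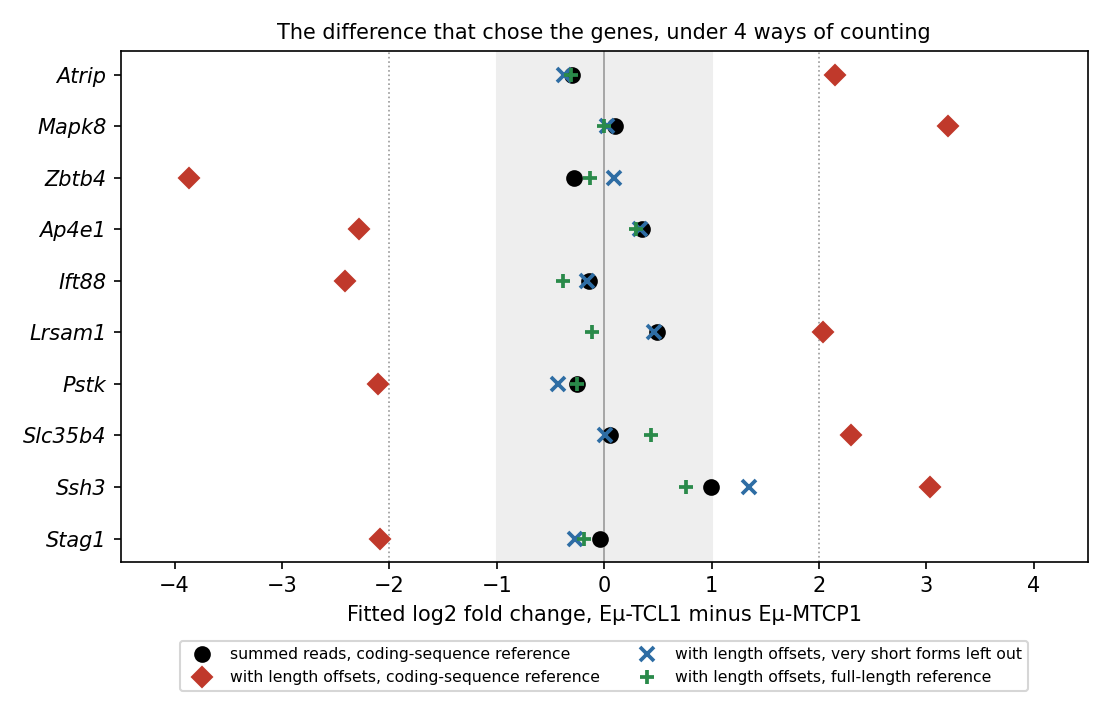
Fitted log2 fold change from Eµ-MTCP1 to Eµ-TCL1 (x axis) of the 10 genes (rows) under 4 ways of counting. Black circles are summed reads and red diamonds length offsets, both on the coding-sequence reference, blue crosses are offsets without forms under 100 bases, and green plus signs are offsets on the full-length reference. The shaded band is the limit of 1 and dotted lines are the limit of 2, and only the diamonds lie beyond the dotted lines.

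The authors' normalized log2 values on the coding-sequence reference, which were made with tximport, showed the same libraries apart. Atrip was at 7.94, 8.11 and 7.98 for Eµ-MTCP1, 10, 9.17 and 9.63 for Eµ-TCL1 and 7.85, 8.95 and 8.94 for wildtype. Mapk8 was at 7.87 and 8.93 in B4376 and C1594 and at 6.54 to 6.70 in the other 7 libraries. In the authors' values on the full-length reference, Mapk8 lay between 7.76 and 8.15 in all 9 libraries, and the groups overlapped.

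Whether forms switched was tested between the mean of both transgenic groups and wildtype, a contrast the rule did not use, with p-values adjusted by Benjamini-Hochberg over all features tested. The mean dilutes a change confined to 1 transgenic group and can cancel opposite changes. Mapk8 had mean log2 lengths of 10.22, 7.95 and 10.19 in Eµ-MTCP1, Eµ-TCL1 and wildtype mice, and a tested difference of -1.11. These tests therefore cannot decide whether forms switched in 1 transgenic group only, which was not tested. For average length, tested with limma, 0.0193% of 10351 genes passed on the coding-sequence reference and 0.0291% of 13748 on the full-length reference. None of the 10 genes passed on either, with 1 gene at an unadjusted p under 0.05 on each. On the coding-sequence reference 7 of the 10 were shorter in transgenic mice, where 45.5% of all genes were (median log2 difference -0.42, and 0.01 over all genes). The rule picked genes with a low average length in 1 transgenic group, which also lowers the transgenic mean. This count and median are therefore tied to the choice of the genes and are only a description. Ift88 had the largest difference, 2.26 ± 0.78 on the log2 scale (SE, limma adjusted p = 1.0), longer in the transgenic mean. Without very short forms that difference was -0.03. On the full-length reference 9 of the 10 were shorter in transgenic mice, where 55.3% of all genes were, with a median of -0.18 and -0.01 over all genes. Atrip was shorter there by 0.24 ± 0.07 (SE, limma adjusted p = 0.668).

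Transcript counts were tested with edgeR's quasi-likelihood test, and transcript usage within a gene with the splicing test of edgeR. On the coding-sequence reference 5.11% of 17344 transcripts changed in count and 0.301% of 10290 in usage. Of the 10 genes, 16 transcripts were tested for count and 10, of 4 genes, for usage, and none passed or had an unadjusted p under 0.05. No very short form had enough reads to enter these tests. With the filter on low counts removed 14 of them entered, at too few reads, and with 0 reads in whole groups for several, for these fits to tell whether they switched. On the full-length reference 3.18% of 37760 transcripts changed in count and 0.461% of 31473 in usage. There 30 transcripts of the 10 genes were tested for count and 28, of 8 genes, for usage. None passed, and 4 and 2 had an unadjusted p under 0.05.

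The full-length reference shows how the longer forms were used. A form is called short here where it is under 50% of the length of the longest form of the gene in that reference. The share of reads on short forms overlapped between Eµ-MTCP1 and Eµ-TCL1 mice in all 10 genes, and it did not overlap in 9.01% of 9065 genes with reads on a short form. Between transgenic and wildtype mice it did not overlap in 2 of the 10 genes, Atrip and Pstk, and in 4.41% of the 9065 genes.

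For Atrip that share was 60.0, 34.2 and 41.6% for Eµ-MTCP1, 40.7, 40.8 and 48.8% for Eµ-TCL1 and 27.9, 23.8 and 26.0% for wildtype. Nearly all of these reads were on Atrip-206, a form of 1280 bases with a retained intron (chr9:109059810-109062289, minus strand), at 374.8, 199.1 and 240.6 reads, 200.5, 270.3 and 228.4 reads and 149.9, 171.9 and 167.7 reads. All 6 transgenic libraries were above all 3 wildtype libraries. In CPM the means were 22.5, 17.6 and 12.7, and the log2 difference of the transgenic mean from wildtype was 0.82 ± 0.28 (SE, edgeR adjusted p = 0.182). In usage within the gene it was 0.81 ± 0.33 (SE, edgeR adjusted p = 1.0), and neither passed. The decay form Atrip-204 was at 7.44, 5.63 and 13.2 CPM in Eµ-MTCP1, Eµ-TCL1 and wildtype mice (log2 difference -0.86 ± 0.38, SE, edgeR adjusted p = 0.292). The main coding form Atrip-201 was at 13.7, 14.4 and 19.3 CPM (-0.27 ± 0.30, SE, edgeR adjusted p = 0.727).

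**Figure D4:**
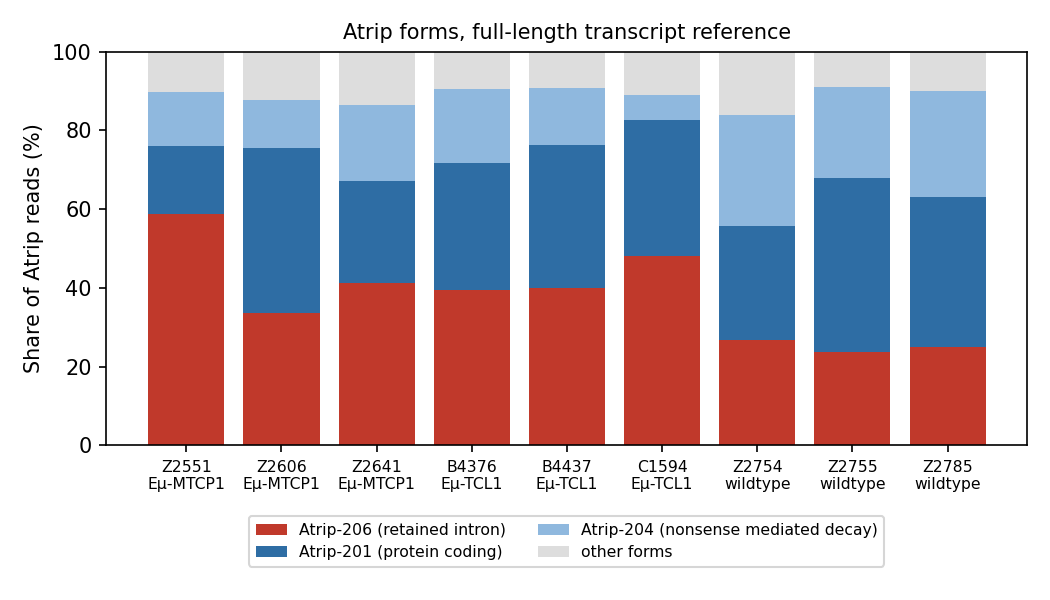
Share of Atrip reads (y axis, percent) on 3 named forms and on all other forms, per library (x axis, mouse and group), on the full-length reference. The bottom segment is the retained-intron form Atrip-206, which together with the other short forms took 34.2 to 60.0% in the 6 transgenic libraries and 23.8 to 27.9% in the 3 wildtype libraries.

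Atrip overlaps Trex1, which encodes a DNA exonuclease and lies on the same strand. Of the 626 exon bases of Atrip-202, 459 lie in Trex1 exons, as do 1147 of the 4248 bases of Atrip-204, but 0 of the 1280 bases of Atrip-206 and none of the coding bases of Atrip-202. Trex1 had 1966, 1873 and 2117 reads for Eµ-MTCP1, 2338, 1902 and 974 for Eµ-TCL1 and 863, 1116 and 1036 for wildtype on the full-length reference. It was higher in the transgenic mean by 1.08 ± 0.27 on the log2 scale (SE, edgeR adjusted p = 0.0243), with C1594 among the wildtype values. In the deposited gene counts Atrip had 12 to 60 reads per library, against 475 to 726 on the full-length reference, and the part of the overlap in this was not tested. Ift88, Lrsam1, Pstk and Slc35b4 overlap genes on the opposite strand.

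For Pstk the share of reads on short forms was 85.6, 82.6 and 80.4% for Eµ-MTCP1, 75.0, 81.4 and 87.1% for Eµ-TCL1 and 98.0, 92.0 and 100% for wildtype. The rest lay on Pstk-211, a retained-intron form of 5294 bases beyond the end of the main form (chr7:131389189-131394482). It had 15.2, 22.8 and 12.3 reads for Eµ-MTCP1, 15.4, 20 and 15.6 for Eµ-TCL1 and 3.6, 12.1 and 0 for wildtype. All 6 transgenic libraries were above the wildtype libraries, the nearest pair being Z2641 and Z2755. The log2 difference in usage was 2.34 ± 0.77 (SE, edgeR adjusted p = 0.947). The direction of both Atrip and Pstk was thus shared by all 6 transgenic mice, and neither passed the adjustment over all transcripts.

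On the coding-sequence reference Pstk-206, a decay form of 804 coding bases, had 31.6, 18.6 and 20.6 reads for Eµ-MTCP1, 0 for Eµ-TCL1 and 0, 29.7 and 0 for wildtype. It was present in every Eµ-MTCP1 mouse and in no Eµ-TCL1 mouse. Its contrast with wildtype rested on Z2755: the log2 difference of the transgenic mean was -2.13 (edgeR adjusted p = 0.496) and turned to 3.87 without that library, the one from the other lane. The full-length reference put no 10% share of Pstk reads or TPM on Pstk-206 in any library.

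Stag1-215, a processed transcript of 3857 bases, had 38.9 reads in Z2606, 51.1 in B4376, 62.5 in B4437 and 0 in the other 6 libraries on the full-length reference. It had reads in no wildtype library and in 3 of 6 transgenic ones, so the groups overlapped at 0 (usage, edgeR adjusted p = 0.184). The leading form Stag1-206 was at 13.2, 10.1 and 22.3 CPM in Eµ-MTCP1, Eµ-TCL1 and wildtype mice (log2 difference -0.78 ± 0.32, SE, edgeR adjusted p = 0.259).

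The reads of near-identical forms varied within groups. Lrsam1-201 had 44.8, 113.5 and 118.0 reads for Eµ-MTCP1, 133.6, 0 and 129.8 for Eµ-TCL1 and 0, 125.7 and 108.5 for wildtype. Lrsam1-202, of 4030 bases against 3981, had 70.6, 66.9 and 0 reads, 0, 170.0 and 35.5 reads and 118.9, 80.5 and 0 reads. In Eµ-TCL1 and wildtype a library was at 0 on the 1 form and another library at 0 on the other, whereas in Eµ-MTCP1 only Lrsam1-202 had a library at 0. Ssh3-201 had 0 reads in Z2606, B4376 and Z2785, 1 mouse of each group. These pairs share most of their sequence, and how reads are split between them is uncertain.

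By reads, Zbtb4, Ap4e1, Mapk8 and Ift88 kept their leading form in all 9 libraries of the full-length reference. By TPM only Zbtb4 did. Zbtb4-202, of 7811 bases, took 238.0 to 454.0 reads per library, and the short Zbtb4-205 at most 2.0. Ap4e1-201 led Ap4e1-206, a retained-intron form, in reads, with 36.6 to 188.1 reads against 14.4 to 36.6. Mapk8-205 led in reads, and Mapk8-207, with a retained intron, was at 1.34, 0.937 and 3.05 CPM in Eµ-MTCP1, Eµ-TCL1 and wildtype mice (log2 difference -1.27 ± 0.61, SE, edgeR adjusted p = 0.335). Ift88-203, printed above by its coding part, had 562 bases and 0, 9.0 and 0 reads for Eµ-MTCP1, 0, 5.7 and 0 for Eµ-TCL1 and 3.7, 11.7 and 5.5 for wildtype. It was found in every wildtype library and in 1 mouse of each transgenic group, at too few reads to be tested. In TPM it was the leading form in these 5 libraries, where short forms took 57.6 to 68.9% of Ift88 TPM, against 0 to 18.1% in the other 4. Slc35b4-204, a retained-intron form of 2320 bases, had 114.0, 107.8 and 70.6 reads for Eµ-MTCP1, 218.0, 172.5 and 222.3 for Eµ-TCL1 and 46.0, 189.5 and 192.7 for wildtype. Wildtype mice spanned nearly the whole range, and the log2 difference of the transgenic mean was 0.15 ± 0.47 (SE, edgeR adjusted p = 0.921).

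The level of the genes as a whole was tested on summed reads. On the coding-sequence reference 9.49% of 11161 genes changed in Eµ-MTCP1 mice against wildtype, 9.16% in Eµ-TCL1 mice and 13.1% in the transgenic mean. On the full-length reference 13.4% of 14891 genes changed in the transgenic mean. None of the 10 genes passed in any of these comparisons. The log2 difference of the transgenic mean from wildtype ran from -0.71 ± 0.33 for Ap4e1 (SE, edgeR adjusted p = 0.179) to 0.50 ± 0.49 for Ssh3 (adjusted p = 0.536), with a median of -0.16 and -0.02 over all genes. Ap4e1 had 45, 72 and 27 reads for Eµ-MTCP1, 73, 74 and 65 for Eµ-TCL1 and 157, 112 and 61 for wildtype, so that wildtype overlapped both. On the full-length reference Stag1 had the lowest p, with 166, 244 and 256 reads for Eµ-MTCP1, 218, 278 and 199 for Eµ-TCL1 and 639, 369 and 207 for wildtype (log2 difference -0.57 ± 0.26, SE, edgeR adjusted p = 0.174). Z2785 lay among the transgenic values. Directions differed between references for Atrip, Mapk8 and Lrsam1, none of which passed.

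TPM gave another picture on the coding-sequence reference. Slc35b4 was at 6.02, 6.34 and 5.29 TPM for Eµ-MTCP1, 34.0, 55.3 and 5.66 for Eµ-TCL1 and 9.19, 8.04 and 5.19 for wildtype. The same libraries without very short forms were at 6.02, 6.34 and 5.29, at 7.43, 5.82 and 5.66 and at 9.19, 8.04 and 5.19 TPM. Zbtb4 was at 21.3, 9.08 and 0.348 TPM in Eµ-MTCP1 mice with all forms, and at 0.743, 0.749 and 0.348 TPM without the very short ones. On the full-length reference Zbtb4 was at 3.01, 3.24 and 2.23 TPM for Eµ-MTCP1, 2.84, 2.68 and 3.08 for Eµ-TCL1 and 3.76, 2.59 and 3.02 for wildtype, and all groups overlapped.

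**Figure D5:**
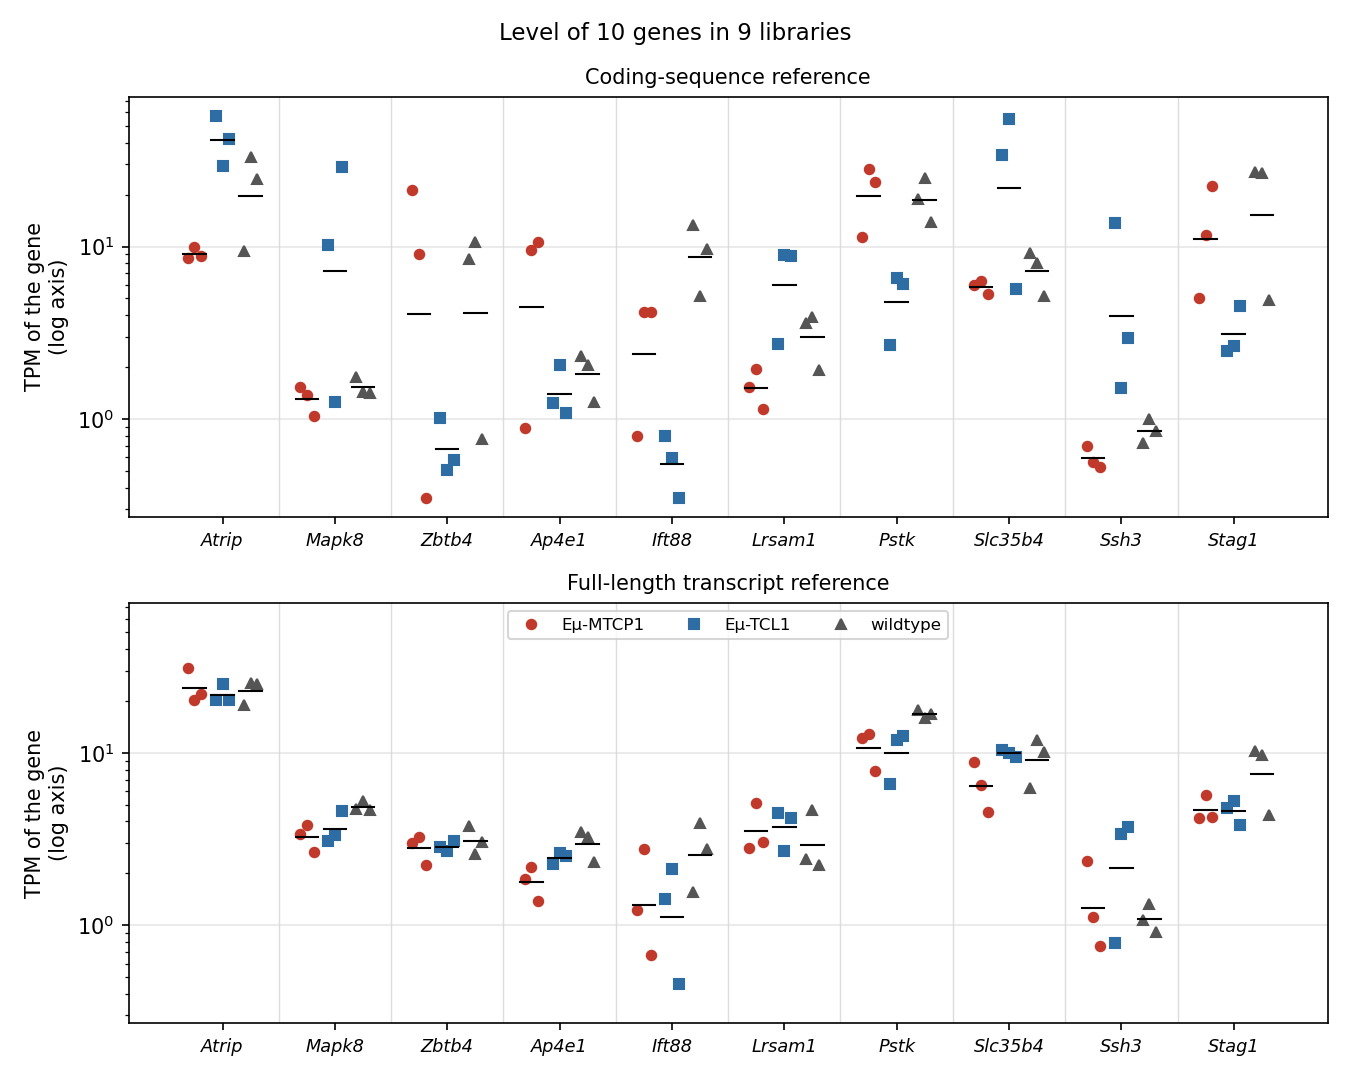
TPM of the 10 genes (y axis, log scale) in each of 9 libraries, on the coding-sequence reference (top) and the full-length reference (bottom), with the same y axis. Points are mice, 3 per group, and black bars are geometric means. Slc35b4 reaches 55.3 TPM in B4437 on the coding-sequence reference, against 11.9 TPM at most on the full-length reference.

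Genes that work with the 10 genes were counted from 10 lists holding 98 genes, of which 92 were tested on summed reads of the coding-sequence reference. The lists were chosen with earlier results of these data known, so the shares and p-values of their genes are not independent results. In the transgenic mean against wildtype 3 rose and 4 fell, 7.61% of those tested against 13.1% of all genes. In Eµ-MTCP1 mice 4 rose and 2 fell (6.52%, against 9.49%), and in Eµ-TCL1 mice 2 rose and 2 fell (4.35%, against 9.16%). None of 12 ATR checkpoint genes or 12 transporters of the SLC35 family passed in the transgenic mean. Nor did any of 6 genes of selenocysteine synthesis and insertion or 5 genes listed with the AP-4 coat (Ap4b1, Ap4m1, Ap4s1, Tepsin and Aftph). Of 6 tested methyl-CpG binding genes 1 rose, Zbtb38, a relative of Zbtb4. It was at 74.2, 78.0 and 102.0 CPM for Eµ-MTCP1, 97.7, 74.0 and 89.9 for Eµ-TCL1 and 43.6, 27.8 and 32.7 for wildtype, without overlap (log2 difference 1.48 ± 0.22, SE, edgeR adjusted p = 0.00168). Of 7 tested slingshot and cofilin genes 1 fell, Ssh2, the slingshot phosphatase of the same family as Ssh3. It was at 57.1, 48.8 and 29.3 CPM, 50.3, 42.6 and 38.1 CPM and 99.8, 101.0 and 94.6 CPM, also without overlap (-0.97 ± 0.19, SE, edgeR adjusted p = 0.00861). Both passed with any of the 9 libraries left out.

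Of 11 tested genes of the intraflagellar transport complex B 1 rose, Ift27, by 0.96 ± 0.21 (SE, edgeR adjusted p = 0.0126). Of 7 genes of ESCRT-I, the complex of the Lrsam1 target TSG101, Vps28 rose by 0.69 ± 0.17 (SE, edgeR adjusted p = 0.0225) and Vps37b fell by 1.08 ± 0.25 (SE, edgeR adjusted p = 0.0177). These 3 did not overlap between transgenic and wildtype libraries, and each lost its call without 1 of 2 wildtype libraries, with adjusted p up to 0.0707 for Ift27 and 0.101 for Vps28 (without Z2754 or Z2755) and up to 0.0741 for Vps37b (without Z2755 or Z2785). Of 12 cohesin genes 1 fell, Esco1, an acetyltransferase of the cohesin ring, at -1.11 ± 0.31 (SE, edgeR adjusted p = 0.041), and it passed in 2 of 9 fits with a library left out, those without B4437 or Z2785 (adjusted p up to 0.245). Of 14 tested genes of the JNK pathway 1 fell, Jund, at -1.89 ± 0.55 (SE, edgeR adjusted p = 0.0472), and it passed in 3 of 9 such fits, those without Z2606, Z2641 or Z2785 (adjusted p up to 0.3). Jund did not pass on the full-length reference (edgeR adjusted p = 0.0501). Wildtype Jund ran from 238 to 1860 CPM, the highest in Z2755, and overlapped the transgenic mice. Ssh1 passed in Eµ-MTCP1 mice (log2 difference 0.75 ± 0.19, SE, edgeR adjusted p = 0.0341) and not in Eµ-TCL1 mice, and its difference between the transgenic groups was not tested.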

How the data were processed

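Splenic B-cell RNA was sequenced in 9 mice, 3 per group, grouped by the transgene in the labels. For the libraries the study's methods give both SMARTer with Nextera XT and, elsewhere, TruSeq stranded. The authors used Salmon 1.0.0 (submitters' processing notes) for estimated counts per transcript and for TPM, against 140748 full-length mouse transcripts and, separately, against 57871 sequences that include the human transgenes. Whole gene counts for 50600 genes were deposited, with HISAT2 2.0.6, Subread and featureCounts named in the processing notes. The deposited log2 normalized values come from tximport and DESeq2. The deposited columns of fold changes, p-values and base means hold the authors' own comparisons and were not used, nor was the coverage-filtered count table. 0 columns had no sample.

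Transcripts were assigned to genes by GENCODE M21 (GRCm38), while the methods name release 23. At least 99.17% of reads per library on the coding-sequence reference, and 99.73% on the full-length one, fell on M21 transcripts. Estimated counts were rounded, filtered by filterByExpr and scaled by TMM (factors 0.910 to 1.18). Counts were tested with the quasi-likelihood test of edgeR 4.0.16 (R 4.3.3), usage with diffSpliceDGE, and log2 average effective length (no pseudocount) with limma 3.58.1, all 9 libraries in 1 fit, two-sided, adjusted p under 0.05 by Benjamini-Hochberg over all features. The 10 genes and the partner lists were chosen with earlier results of these data known. Transcripts were named where they took at least 10% of a gene's reads or TPM in a library. In simulated data 26.0% of 2-fold and 100% of 4-fold gene changes were recovered (11056 genes tested, of which a small part was changed). Of length swaps over 0.5 log2, 89.5% were recovered (11052 genes tested), and of usage swaps 96.5% (10073 transcripts tested). The changed genes had more reads than Mapk8, Zbtb4, Ift88 and Ssh3, and lengths were annotated ones. Recovery with the low effective lengths of very short forms was therefore not simulated. Alternatives were the other reference, each library left out, no expression filter, RLE scaling, DESeq2 1.42.0, deposited gene counts, a constant prior variance, annotated or common lengths, and omission of forms with an effective length under 100. For the offset check the alternatives were chosen after seeing the data.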

Additional observations from a re-analysis of the deposited data

How the results depend on the processing

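No paired analysis was possible because the labels number no replicates, and the numbers used here only name the mice. None of the 10 genes or their transcripts passed a test between transgenic and wildtype mice under any alternative run, though for the 14 very short forms, tested only without the expression filter, the fits had too few reads to be informative. Genes passing for average length numbered 2, and 4 on the full-length reference, 4 without the expression filter, 4 with a constant prior variance, 6 with annotated and 6 with common lengths. DESeq2 raised the genes changed from 1059 to 1645 in Eµ-MTCP1 mice and from 1022 to 1691 in Eµ-TCL1 mice, and the transcripts changed from 887 to 2033. Transcripts changed in usage went from 31 to 145 on the full-length reference. The genes that differed by over 1 in average length between Eµ-TCL1 and Eµ-MTCP1 mice went from 10 to 0 on the full-length reference, with annotated lengths and without very short forms, and those that met the rule went from 10 to 0 on the full-length reference and without very short forms. With a library left out, calls ranged from 2 to 11 for length, from 524 to 1025 and from 514 to 1236 for counts in Eµ-MTCP1 and Eµ-TCL1 mice, from 761 to 1612 in the transgenic mean, from 340 to 836 for transcripts and from 22 to 41 for usage. Members over 1 ranged from 9 to 10, and those that met the rule from 6 to 10. Length differences from wildtype that turned, none of them past the threshold, were without very short forms 0.01 (Atrip), 0.04 (Mapk8), -0.10 (Zbtb4), -0.03 (Ift88), 0.33 (Lrsam1), 0.19 (Pstk) and 0.08 (Ssh3), on the full-length reference -0.17 (Zbtb4) and -0.07 (Stag1), and with annotated lengths 0.04 (Lrsam1) and 0.07 (Pstk). With a library left out Pstk ranged from -0.38 to 0.20 and Ssh3 from -1.17 to 0.03. Differences in summed reads turned on the full-length reference for Atrip (0.02), Mapk8 (-0.41) and Lrsam1 (0.29), and with the deposited gene counts for Mapk8 (-0.41) and Lrsam1 (0.32). With a library left out Lrsam1 ranged from -0.30 to 0.18 and Slc35b4 from -0.13 to 0.20. Pstk-206 ranged from -2.70 to 3.87 in count and from -2.22 to 4.69 in usage. The cause of these changes was not tested beyond what each alternative leaves out. With 12 to 446 reads per gene and library on the coding-sequence reference, recovery of a change in a form that takes a few percent of a gene was not tested.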
